A study of Mus musculus with 6 samples.

Results

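The genes of synaptic vesicles and of SNARE-driven exocytosis were followed in the stellate ganglia, the paired sympathetic ganglia that send most of the sympathetic nerve fibres to the heart. The members were all genes whose platform symbol belongs to the synaptotagmin, Doc2, syntaxin, SNAP, VAMP, syntaxin-binding, Unc13, complexin, CAPS, NSF, synapsin, synaptophysin, SV2, Rim and Rab3 name families, and they were chosen by name, not by their values. The name pattern for Rab3 also takes Rab30 to Rab39, Rab GTPases outside the Rab3 family, which are kept and described apart. The rule found 225 probe sets of 99 genes, out of 18193 genes with a single symbol on the array. Of these, 80 genes had at least 1 probe set with a mean log2 intensity of 4 or more over the 6 arrays and were tested, each by its probe set of highest mean, among 9955 genes tested in all. The other 19 stayed below that floor.

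The 3 TAC arrays came from mice in which the aortic arch had been narrowed (transverse aortic constriction), which raises the pressure load on the left ventricle. These were C57/Bl6 males, taken 8 weeks after the operation. The 3 sham arrays came from males of the same strain 8 weeks after a sham operation. Each array (an Affymetrix whole-genome mouse array) held labelled RNA from the left and right ganglia of 1 animal, per the labels' protocols, and carries a letter A, B or C. Whole ganglia hold neurons, satellite glia, vessels and connective tissue. A member that differs may therefore do so through more or fewer cells of a type, or more or less RNA per cell. These cannot be told apart here.

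In exocytosis, a vesicle SNARE of the VAMP family zips together with the target SNAREs syntaxin and SNAP-25 of the plasma membrane and pulls the membranes into fusion. Calcium-binding synaptotagmins and Doc2 proteins sense the calcium that triggers it. Complexins and Unc13 and CAPS proteins hold or prime the complex. Rab3 and Rim proteins bring vesicles to the release site, and NSF with its SNAP adaptors takes spent complexes apart for reuse. Sympathetic neurons use this machinery to release noradrenaline and its peptide cotransmitters, partly from small vesicles and partly from large dense-core vesicles.

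The defining markers of the labelled tissue were present. Tyrosine hydroxylase (Th) measured 13.84 ± 0.06 after TAC and 13.59 ± 0.06 after sham surgery on the log2 scale, and dopamine beta-hydroxylase (Dbh) 13.89 ± 0.07 and 13.86 ± 0.09 (SD, n = 3 each). The linear intensity was summed over the 12 measured sympathetic neuron markers of 13 listed. It was 106517 to 108593 on the TAC arrays and 102506 to 112082 on the sham arrays, so the groups overlapped. Singly, Th at 0.24 (SE 0.08) and Chrna3 at 0.23 (SE 0.08) had every TAC array above every sham array. Of the 12 markers, 5 had a higher and 7 a lower TAC mean. Between arrays the correlation over the 17550 probe sets tested was 0.980 to 0.994. TAC B had the lowest mean correlation, 0.984, and was lower than every other array in summed satellite glia and Schwann cell markers (15688, against 21067 and 22921 on the other TAC arrays and 22663 to 24831 on the sham arrays, over 7 measured of 9 listed). Ucp1, which marks brown fat, measured 6.82 on TAC B and 8.54 on sham C, and at most 4.64 on the other arrays. The 4 measured skeletal muscle markers of 7 listed all had a lower TAC mean (median difference -1.89), with a summed intensity of 222, 66.3 and 65.1 on TAC A, B and C, against 605, 47.7 and 1085 on sham A, B and C. Of 6 fibroblast markers 5 had a lower TAC mean, with Col1a1 at -0.60 (SE 0.24) and overlapping groups. The other marker, Dcn, was 0.26 higher (SE 0.10), with every TAC array above every sham array. In the summed intensity of the 6 markers the groups overlapped. The part of these array differences in the results was not tested.

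After TAC, 10 members had a higher mean at an unadjusted limma p under 0.05 and 1 had a lower mean, but none passed once the p-values were adjusted. The 10 were the target SNAREs Stx3 and Snap25, the vesicle SNAREs Vamp1 and Vamp4, the disassembly adaptor Napb, the priming factor Cadps, the calcium sensor Syt5, the vesicle glycoprotein Sv2a, and the GTPases Rab3c and Rab36. The 1 lower member was the calcium sensor Syt9. Their folds were modest, from 1.15 for Rab3c and Cadps to 1.54 for Rab36, and Syt9 was 1.24-fold lower. With Benjamini-Hochberg adjustment over all tested probe sets limma called 0 of the 80 members, and the background was 0% of the 9955 genes. The smallest adjusted p of any member was 0.512, for Stx3.

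Set against all genes tested, each by its probe set of highest mean, the 10 higher members are 12.5% of the 80, where 5.43% of all genes had a higher mean at an unadjusted p under 0.05. The 1 lower member is 1.25%, where the background is 3.32%, and in either direction the background is 8.76%. Every TAC array lay above every sham array for 13 members, 16.3% of them, against a background of 8.78%. Every TAC array lay below every sham array for 8 members, 10% of them, against a background of 9.09%. The mean was higher after TAC for 44 members and lower for 36, a share of 55.0% higher that equals the 55.0% of all genes tested. The median log2 difference over the 80 members was 0.017, beside 0.020 over all genes tested. Differences ran from -0.53 for Rab38 to 0.62 for Rab36, and 3 members differed by more than 0.5. The split of 10 higher and 1 lower depended on the arrays' scaling: after median centring 5 members were higher and 4 lower, where 4.19% of all probe sets tested were higher and 4.84% lower. After quantile normalization 6 members were higher and 3 lower, beside 4.51% and 4.74% of all probe sets. Without TAC B and sham C 4 members were higher and 0 lower, beside 3.21% and 2.26%, and without TAC B alone 6 were higher and 0 lower, beside 4.71% and 2.38%. Stx3 and Napb had an unadjusted p under 0.05 in each of 15 alternatives, and Vamp1 in 14 of 15. Syt5 and Syt9 had it in 11 of 15, Vamp4 in 10 of 15 and Rab36 in 10 of 14. For Rab3c it was 7 of 15, for Cadps and Sv2a 6 of 15, and for Snap25 5 of 15. The alternatives reuse the same arrays. Without Rab30 to Rab39, 9 of 68 members were higher and 1 lower at an unadjusted p under 0.05, with a median of 0.018.

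**Figure D1:**
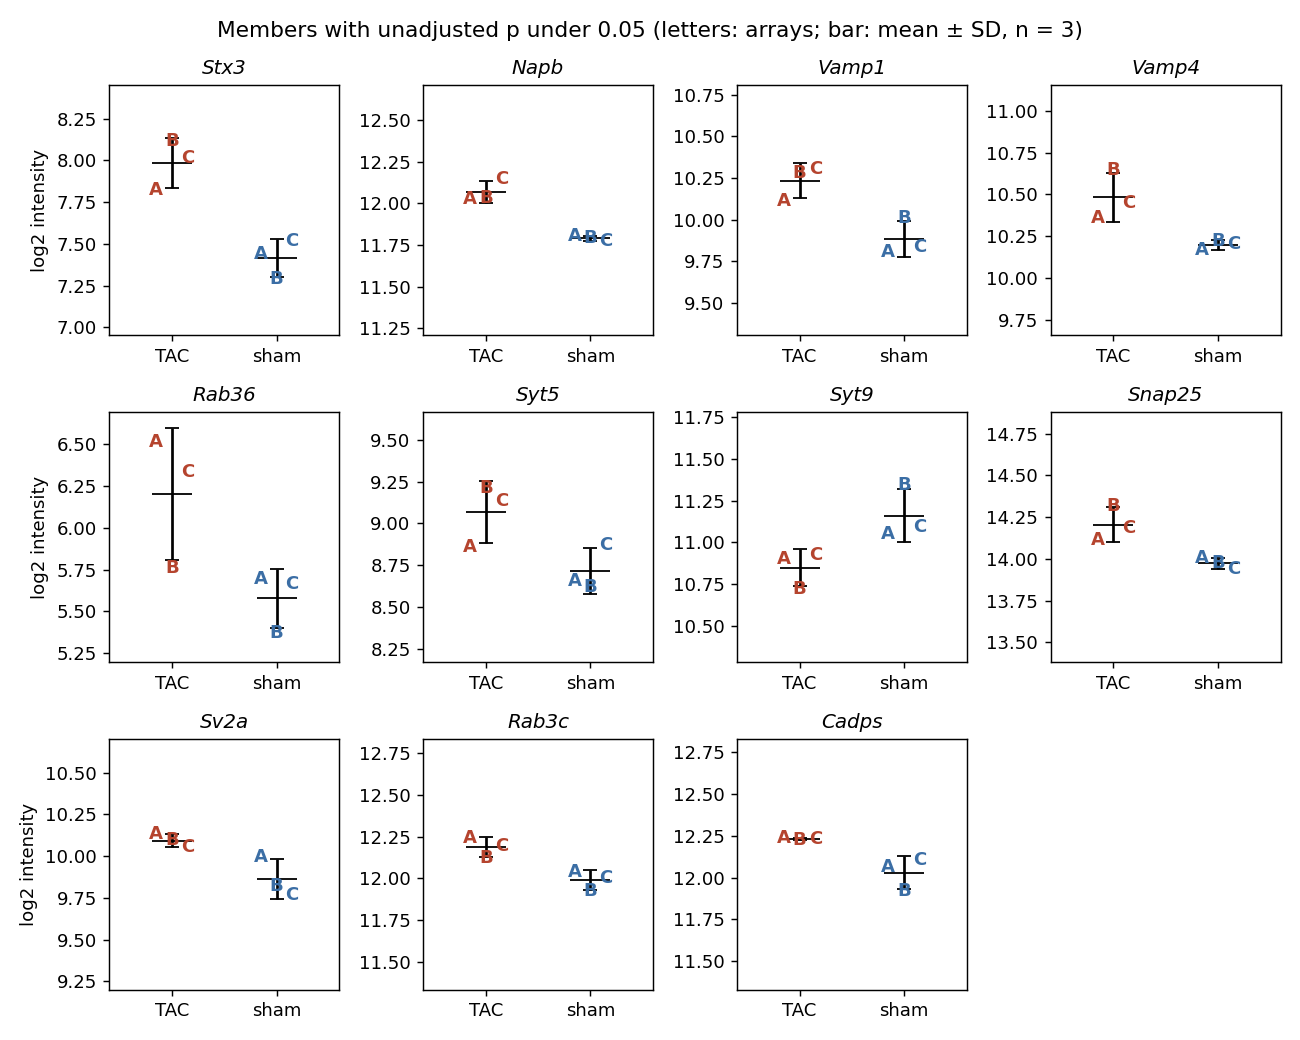
Log2 intensity on each array (letters A, B and C) for the 11 members with an unadjusted limma p under 0.05, TAC left and sham right in each panel, with mean ± SD (n = 3) and the same span of 1.5 log2 units on every axis. The 3 TAC letters lie above the 3 sham letters in each panel but those of Syt5, where they overlap, and Syt9, where they lie below.

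Among the target SNAREs, Stx3 showed the member difference with the smallest p. Stx3 is a plasma membrane syntaxin, best known from ribbon synapses and from the apical membrane of epithelia. It measured 7.82, 8.12 and 8.02 on TAC A, B and C, against 7.44, 7.29 and 7.52 on sham A, B and C, on the log2 scale. The lowest TAC array exceeded the highest sham array, and the difference was 0.57 (SE 0.11), or 1.48-fold (limma adjusted p = 0.512). Its other tested probe set, dimmer, gave 6.75, 6.71 and 6.76 on the TAC arrays and 6.84, 6.32 and 6.50 on the sham arrays, which overlap, with a difference of 0.19 (SE 0.14).

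Snap25, the neuronal partner of syntaxin in the target membrane, measured 14.11, 14.32 and 14.18 on the TAC arrays, against 14.01, 13.98 and 13.94 on the sham arrays. The groups did not overlap, and the difference was 0.23 (SE 0.08), or 1.17-fold (limma adjusted p = 0.542). A second Snap25 probe set differed by 0.15 (SE 0.09) with overlapping groups. Stx1a, the classical syntaxin of the neuronal release site, was lower by 0.25 in the mean (SE 0.13), with 10.32, 10.01 and 10.44 on the TAC arrays and 10.41, 10.53 and 10.57 on the sham arrays. TAC C lay inside the sham range of Stx1a, and its second probe set differed by -0.13 (SE 0.10). Without TAC B the Stx1a difference was -0.12.

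Of the broadly expressed plasma membrane syntaxins, Stx4a, the platform's name for syntaxin 4, measured 8.30, 8.55 and 8.39 on the TAC arrays, against 8.15, 8.25 and 8.24 on the sham arrays, and was 0.20 higher (SE 0.09) with groups that did not overlap. Stx2 measured 8.88, 8.92 and 8.996 on the TAC arrays, against 9.01, 9.37 and 9.18 on the sham arrays, and was 0.26 lower (SE 0.11), also without overlap. Neither reached an unadjusted p under 0.05. Stx17, a syntaxin of autophagosomes, differed by 0.43 (SE 0.19), with TAC B at 7.36 and the remaining TAC arrays at 6.88 and 6.76, against 6.65, 6.29 and 6.77 on the sham arrays. The groups overlapped there. The syntaxins of endosomes, Golgi and endoplasmic reticulum lay closer to 0, from -0.12 for Stx6 and Stx8 to 0.17 for Stx5a. Snap23, the widely expressed relative of Snap25, measured 4.90, 4.83 and 4.81 on the TAC arrays, against 4.80, 4.88 and 4.84 on the sham arrays, a difference of 0.0043 (SE 0.07). Its groups overlap throughout. Snap29 differed by 0.04. Snap47, another SNAP-25 relative, measured 12.97, 13.00 and 13.01 on the TAC arrays, against 12.94, 13.26 and 13.04 on the sham arrays, a difference of -0.09 (SE 0.10). Of the 16 measured target SNAREs, 2 (12.5%) were higher and 0 lower at an unadjusted p under 0.05. Over all genes tested the shares were 5.43% higher and 3.32% lower. The median difference of the 16 was -0.0061.

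For 6 of the 7 vesicle SNAREs the TAC mean exceeded the sham mean, and the median difference of the 7 was 0.10. Vamp1, synaptobrevin 1, measured 10.11, 10.28 and 10.31 on the TAC arrays, against 9.81, 10.01 and 9.84 on the sham arrays. The groups did not overlap, and the difference was 0.35 (SE 0.10), or 1.27-fold (limma adjusted p = 0.516). Vamp4, a vesicle SNARE of Golgi and endosome traffic, measured 10.36, 10.65 and 10.45 on the TAC arrays, against 10.17, 10.22 and 10.20 on the sham arrays, a difference of 0.29 (SE 0.10). The groups did not overlap, but its further probe sets differed by -0.06 (SE 0.08) and -0.09 (SE 0.10). With the mean of its probe sets Vamp4 differed by 0.04. Vamp2, the main synaptobrevin of central synapses, differed by 0.12 (SE 0.11). It measured 11.55, 11.66 and 11.79 on the TAC arrays and 11.64, 11.38 and 11.61 on the sham arrays, which overlap. The dimmer Vamp2 probe set differed by 0.49 (SE 0.20), also with overlapping groups. Vamp3, the widely expressed cellubrevin, measured 11.09, 11.19 and 11.20 on the TAC arrays, against 11.05, 11.21 and 11.15 on the sham arrays. Vamp8, an endosomal VAMP, measured 6.03, 6.24 and 5.93 on the TAC arrays, against 5.93, 5.98 and 5.98 on the sham arrays. Vamp3 differed by 0.02 (SE 0.08) and Vamp8 by 0.10 (SE 0.10), each with overlapping groups. Vamp5 and Vamp7 differed by 0.02 and -0.02.

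By the probe sets that stand for them, 1 of the 4 genes of the disassembly machinery was higher at an unadjusted p under 0.05. The others had a higher mean as well. Over all genes tested, 5.43% were higher at that threshold. Napb, the beta-SNAP enriched in neurons that recruits NSF to spent SNARE complexes, measured 12.03, 12.03 and 12.14 on the TAC arrays, against 11.80, 11.79 and 11.77 on the sham arrays. The sham arrays of Napb lay close together, all below the TAC arrays, and the difference was 0.28 (SE 0.07), or 1.21-fold (limma adjusted p = 0.516). The 4 further Napb probe sets were higher too, by 0.07 to 0.33, none at an unadjusted p under 0.05. Nsf, the ATPase itself, measured 10.24, 10.23 and 10.20 on the TAC arrays, against 10.15, 9.92 and 9.997 on the sham arrays. It differed by 0.20 (SE 0.09) with groups that did not overlap and missed an unadjusted p under 0.05 (adjusted p = 0.551). Napa, the widely expressed alpha-SNAP, measured 9.78, 10.05 and 9.99 on the TAC arrays, against 9.64, 9.84 and 9.78 on the sham arrays, which overlap, a difference of 0.18 (SE 0.10). Its second probe set differed by -0.014 (SE 0.09). Napg, gamma-SNAP, differed by 0.14 (SE 0.08) with groups that did not overlap. Its dimmer probe set measured 6.88, 7.39 and 6.60 on the TAC arrays, against 6.16, 6.35 and 6.18 on the sham arrays, a difference of 0.73 (SE 0.20, limma adjusted p = 0.516). The groups of that probe set did not overlap, and its unadjusted p was under 0.05.

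Priming factors and complexins did not share a direction. Cadps (CAPS1), which primes dense-core vesicles, measured 12.24, 12.23 and 12.23 on the TAC arrays, against 12.06, 11.92 and 12.11 on the sham arrays. The 3 TAC arrays were nearly identical, and the difference was 0.20 (SE 0.08), or 1.15-fold (limma adjusted p = 0.546). Cplx2, a complexin that grips the assembled SNARE complex, had a lower mean, with 12.03, 11.71 and 11.93 on the TAC arrays against 12.04, 12.14 and 12.22 on the sham arrays. TAC A lay just under the lowest sham array, and the difference was -0.25 (SE 0.11), or -0.16 without TAC B. A second Cplx2 probe set measured 11.45, 11.21 and 11.18 on the TAC arrays, against 11.55, 11.53 and 11.76 on the sham arrays, a difference of -0.33 (SE 0.11, limma adjusted p = 0.542). Cplx1, its close relative, measured 12.41, 12.44 and 12.33 on the TAC arrays, against 12.25, 12.47 and 12.35 on the sham arrays, which overlap, a difference of 0.03 (SE 0.09).

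The Munc13 proteins, which open syntaxin for assembly, split in the mean, and the groups overlapped for each. Unc13a measured 7.12, 7.22 and 7.18 on the TAC arrays, against 7.13, 6.82 and 7.12 on the sham arrays, a difference of 0.15 (SE 0.11), and Unc13b differed by -0.29 (SE 0.15). Among the syntaxin-binding members, Stxbp4 measured 6.77, 6.72 and 6.66 on the TAC arrays, against 6.92, 6.82 and 6.92 on the sham arrays, and was 0.17 lower (SE 0.08) with groups that did not overlap. Stxbp5 and Stxbp5l, the tomosyns that compete for syntaxin, each differed by -0.06. Stxbp3 differed by 0.02, and Stxbp6 by 0.38 with an SE of 0.37. Over the 15 measured members of chaperones and priming, 10 had a higher and 5 a lower mean, and the median was 0.08. At an unadjusted p under 0.05, 2 (13.3%) were higher and 0 lower, beside 5.43% and 3.32% of all genes tested.

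**Figure D2:**
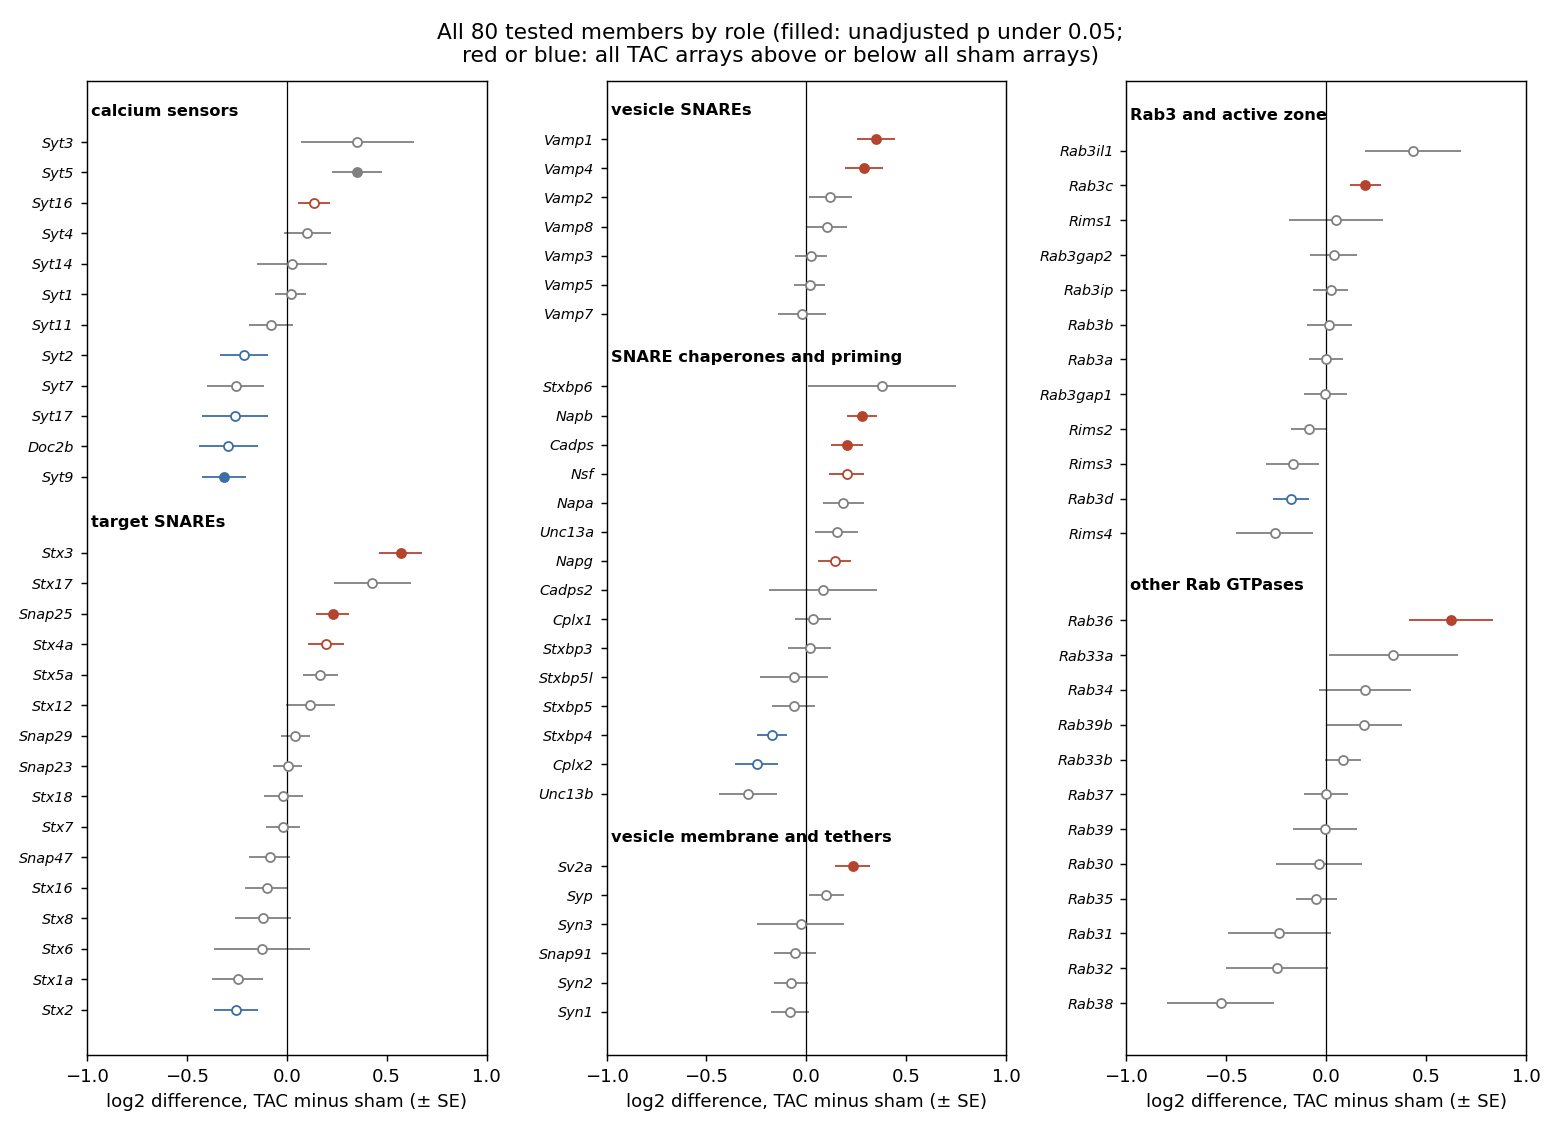
Log2 difference, TAC minus sham, with its limma SE for the 80 tested members in 7 role groups. Filled points have an unadjusted p under 0.05. Red or blue points mark the 13 and 8 members whose TAC arrays all lay above or all lay below the sham arrays. Of the 8 blue points, 4 are in the calcium sensor group (33.3% of its 12, beside 9.09% of all genes tested). That group takes synaptotagmins and Doc2 proteins by name. In Doc2b, Syt17 and Syt2, TAC A and TAC C lay just under the lowest sham array and TAC B well below it.

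The calcium sensor group took synaptotagmins and Doc2 proteins by name, whether or not each binds calcium. Of its 12 measured members, 6 had a higher and 6 a lower mean after TAC, with a median of -0.03. Syt9, a synaptotagmin that can trigger fast release, measured 10.90, 10.72 and 10.92 on the TAC arrays, against 11.05, 11.34 and 11.09 on the sham arrays. Every TAC array lay below every sham array, and the difference was -0.31 (SE 0.11, limma adjusted p = 0.542). Without TAC B it was -0.25 and no longer had an unadjusted p under 0.05. Syt5, another calcium-binding synaptotagmin, measured 8.86, 9.21 and 9.13 on the TAC arrays, against 8.65, 8.62 and 8.87 on the sham arrays. TAC A lay just under sham C, and the difference was 0.35 (SE 0.12, limma adjusted p = 0.542).

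Doc2b, a sensor of low calcium levels, measured 11.26, 10.80 and 11.24 on the TAC arrays, against 11.27, 11.50 and 11.40 on the sham arrays. Syt17 measured 10.87, 10.32 and 10.87 on the TAC arrays, against 10.91, 11.04 and 10.89 on the sham arrays. Syt2, a fast calcium sensor like Syt1, measured 9.46, 9.08 and 9.45 on the TAC arrays, against 9.48, 9.57 and 9.57 on the sham arrays. In these 3 genes the groups did not overlap, but TAC A and TAC C lay just under the lowest sham array and TAC B well below it. TAC B is the array with the lowest summed glial markers, and the part of that array's makeup in these differences was not tested. Without TAC B the difference of Doc2b was -0.14, against -0.29 with it.

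Syt1, the principal calcium sensor of fast transmitter release, measured 13.83, 13.72 and 13.82 on the TAC arrays, against 13.70, 13.82 and 13.79 on the sham arrays. The groups overlapped, and the difference was 0.02 (SE 0.08). A dimmer Syt1 probe set measured 9.02, 9.26 and 9.06 on the TAC arrays, against 8.74, 8.98 and 8.34 on the sham arrays, without overlap, a difference of 0.43 (SE 0.17, limma adjusted p = 0.546). The remaining Syt1 probe sets differed by 0.22 and -0.11 with overlapping groups. Syt4 and Syt11 are relatives in which calcium binding is altered. Syt4 measured 13.17, 13.36 and 13.19 on the TAC arrays, against 13.32, 12.96 and 13.13 on the sham arrays, a difference of 0.10 (SE 0.12). Syt11 measured 11.98, 11.90 and 12.23 on the TAC arrays, against 12.12, 12.03 and 12.19 on the sham arrays, a difference of -0.08 (SE 0.11). The groups overlapped in each. Syt16 was 0.14 higher (SE 0.08) with groups that did not overlap. Syt3 and Syt14 differed by 0.35 (SE 0.28) and 0.03 (SE 0.17).

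For Syt7, a high-affinity calcium sensor of slow and asynchronous release, the sign depended on the probe set. The probe set that stands for the gene measured 6.94, 6.61 and 7.06 on the TAC arrays, against 7.31, 7.04 and 7.02 on the sham arrays, a difference of -0.25 (SE 0.14). A second probe set measured 7.03, 6.61 and 7.13 on the TAC arrays, against 6.52, 6.52 and 6.54 on the sham arrays, a difference of 0.39 (SE 0.14, limma adjusted p = 0.542). Another measured 6.79, 6.91 and 6.79 on the TAC arrays, against 6.50, 6.04 and 6.26 on the sham arrays, a difference of 0.57 (SE 0.13, limma adjusted p = 0.512). These further probe sets had groups that did not overlap, so no direction is given for Syt7.

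Of the 6 measured genes of the vesicle membrane and its tethers, 1 (16.7%) was higher at an unadjusted p under 0.05. The share over all genes tested was 5.43%. Sv2a, the vesicle glycoprotein bound by the antiseizure drug levetiracetam, measured 10.13, 10.10 and 10.05 on the TAC arrays, against 9.99, 9.82 and 9.77 on the sham arrays. The groups did not overlap, and the difference was 0.23 (SE 0.09), or 1.17-fold (limma adjusted p = 0.543). Synaptophysin (Syp) differed by 0.10 (SE 0.09), with 11.35, 11.44 and 11.55 on the TAC arrays and 11.26, 11.37 and 11.40 on the sham arrays, which overlap. The synapsins tether vesicles in the reserve pool, and none separated the groups. Syn1 measured 11.21, 11.10 and 11.31 on the TAC arrays, against 11.17, 11.39 and 11.32 on the sham arrays, a difference of -0.08 (SE 0.10). Syn2 measured 12.70, 12.58 and 12.79 on the TAC arrays, against 12.74, 12.81 and 12.75 on the sham arrays, a difference of -0.08 (SE 0.08), and Syn3 differed by -0.03 (SE 0.22). Snap91 (AP180), a clathrin adaptor of vesicle recycling, measured 11.96, 11.77 and 12.07 on the TAC arrays, against 12.09, 11.92 and 11.95 on the sham arrays, which overlap, a difference of -0.06 (SE 0.10).

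In the Rab3 family, Rab3c measured 12.24, 12.12 and 12.19 on the TAC arrays, against 12.04, 11.92 and 12.004 on the sham arrays. The groups did not overlap, and the difference was 0.20 (SE 0.08), or 1.15-fold (limma adjusted p = 0.546). Both further Rab3c probe sets were higher as well, by 0.23 (SE 0.16) and 0.54 (SE 0.19, limma adjusted p = 0.542). Rab3d, the Rab3 of secretory granules in exocrine cells, was 0.18 lower (SE 0.09) with groups that did not overlap and did not reach an unadjusted p under 0.05. Rab3a, the main Rab3 of synaptic vesicles, measured 11.36, 11.36 and 11.40 on the TAC arrays, against 11.28, 11.35 and 11.49 on the sham arrays. The TAC arrays of Rab3a lay inside the sham range, and the difference was -0.0022 (SE 0.08). Rab3b differed by 0.02 (SE 0.11).

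The Rim scaffolds of the active zone differed by -0.26 (Rims4, SE 0.19) to 0.05 (Rims1, SE 0.24), with overlapping groups in each. Rims1 measured 6.52, 5.84 and 6.30 on the TAC arrays, against 6.50, 5.80 and 6.22 on the sham arrays, and array B was lowest in either group. Rims2 measured 7.75, 7.56 and 7.69 on the TAC arrays, against 7.75, 7.85 and 7.67 on the sham arrays, a difference of -0.09 (SE 0.09). Its dimmest probe set differed by 0.43 (SE 0.16) and a further one by -0.08. The Rab3 regulators Rab3gap1, Rab3gap2 and Rab3ip lay between -0.0039 and 0.04 by the probe sets that stand for them. A dimmer Rab3gap2 probe set was 0.34 higher (SE 0.12), with groups that did not overlap. Rab3il1, near the floor, differed by 0.43 (SE 0.24). It measured 4.21, 4.32 and 4.74 on the TAC arrays and 4.22, 3.51 and 4.24 on the sham arrays.

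Among the 12 Rab GTPases outside the Rab3 family, Rab36 measured 6.52, 5.76 and 6.33 on the TAC arrays, against 5.69, 5.37 and 5.67 on the sham arrays. TAC B lay just above the sham range, and the difference was 0.62 (SE 0.21, limma adjusted p = 0.542). A second Rab36 probe set, with a mean near the floor, differed by 0.08 (SE 0.24). Rab38, known from pigment granules, differed by -0.53 (SE 0.27), with 4.69, 5.11 and 5.23 on the TAC arrays, against 6.11, 5.23 and 5.28 on the sham arrays. Sham A stands apart there.

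**Figure D3:**
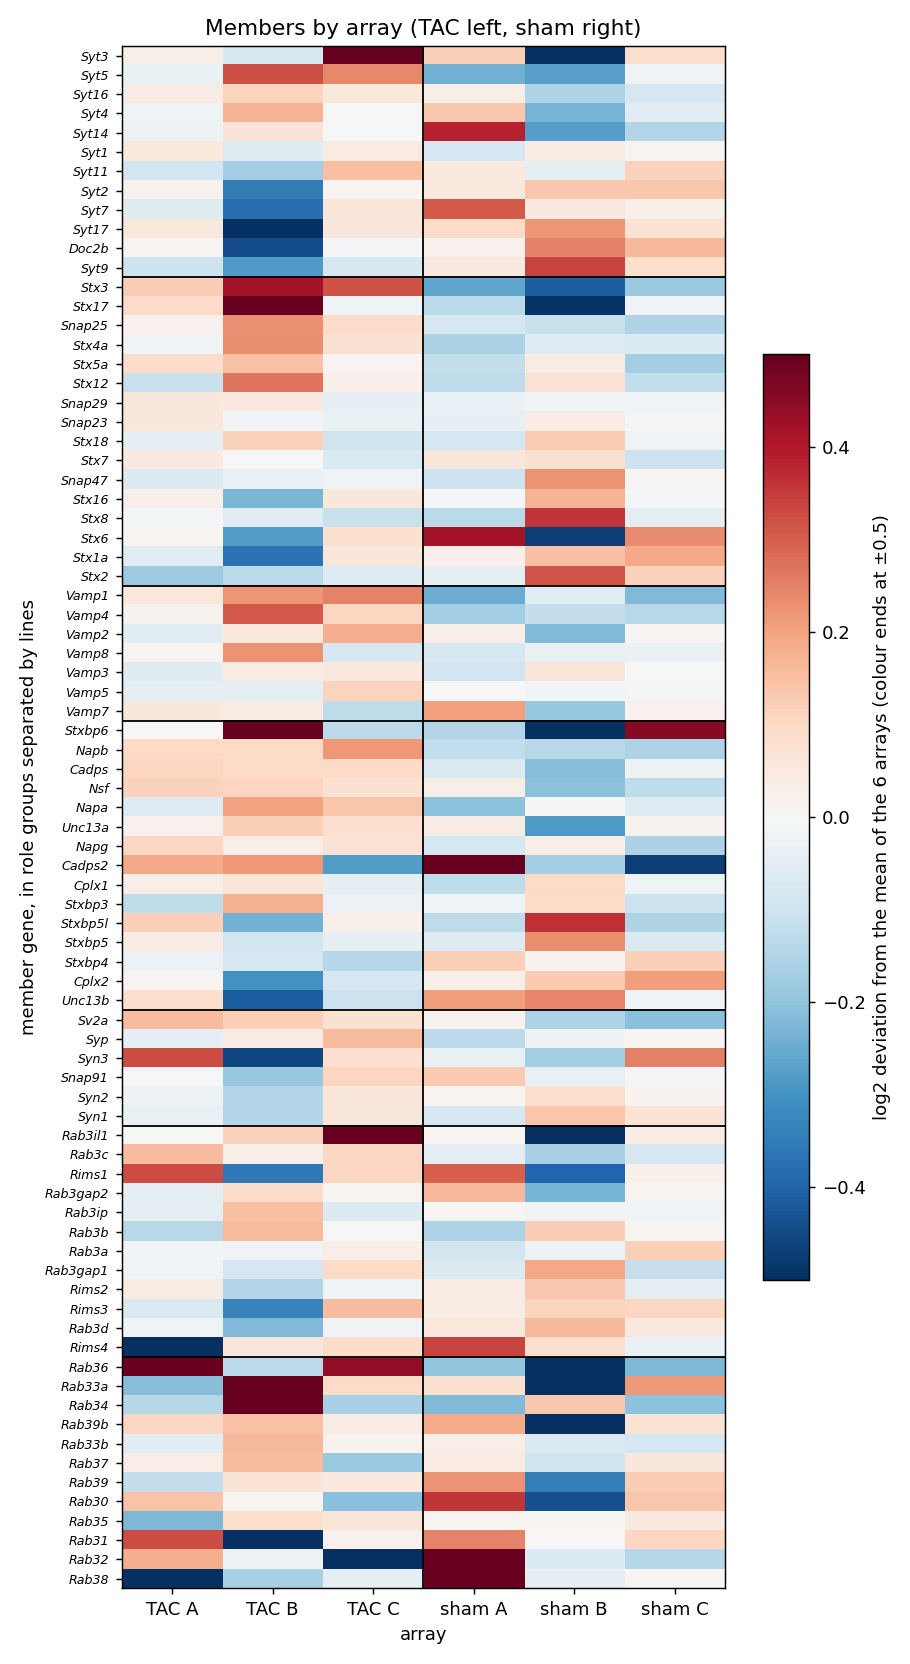
Deviation of each member (rows, in role groups separated by lines) from its own mean over the 6 arrays (columns), on the log2 scale with colours ending at ±0.5. TAC B and sham B hold many of the strongest colours in either direction: TAC B is the highest array for 27.5% of the members, beside 25.7% of all genes tested, and sham B for 25%, beside 15.7%.

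Spread within a group was of the same size after either surgery. The range over the 3 arrays of a group had a median of 0.23 over the members in TAC ganglia and 0.23 in sham ganglia. The median absolute difference between the group means was 0.13 over the members and 0.11 over all genes tested. A range over single arrays and a difference of means are unlike measures. The per-array median deviation of the members lay between 0.013 and 0.039 on the TAC arrays and between -0.021 and 0.010 on the sham arrays. Over all genes tested it lay between -0.00054 and 0.010 on the TAC arrays and between -0.020 and 0.0084 on the sham arrays. For the members, TAC A (0.013) and sham A (0.010) lay close together.

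Of the 80 genes, 43 had several tested probe sets, which read different stretches of the same transcript or its variants. All probe sets agreed in sign for 26 genes and disagreed for 17. Of all 151 tested member probe sets, 20 (13.2%) were higher and 3 (1.99%) lower at an unadjusted p under 0.05, where the background over all probe sets with 1 symbol is 6.02% and 3.08%. Probe sets of 1 gene share their transcript and are not separate evidence. A further probe set reached an unadjusted p under 0.05 in 11 genes, and in 1 of them, Rab3c, the probe set that stands for the gene did so too. Syt4 is an example, with 11.15, 11.68 and 11.51 on the TAC arrays against 11.09, 11.11 and 10.86 on the sham arrays for its dimmer probe set, a difference of 0.43 (SE 0.15), beside 0.10 for the brighter one. For Syt17 the dimmer probe set was lower, by 0.48 on the log2 scale (SE 0.18). Of the 80 probe sets that stand for genes, 6 carry the Affymetrix suffix x and 4 the suffix s, which mark probes that may also read related transcripts; among the genes named above these are Cadps, Cplx2, Syn3 and Stx5a (s) and Stx1a, Snap47, Rab3a, Vamp3, Stx6 and Stx18 (x).

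**Figure D4:**
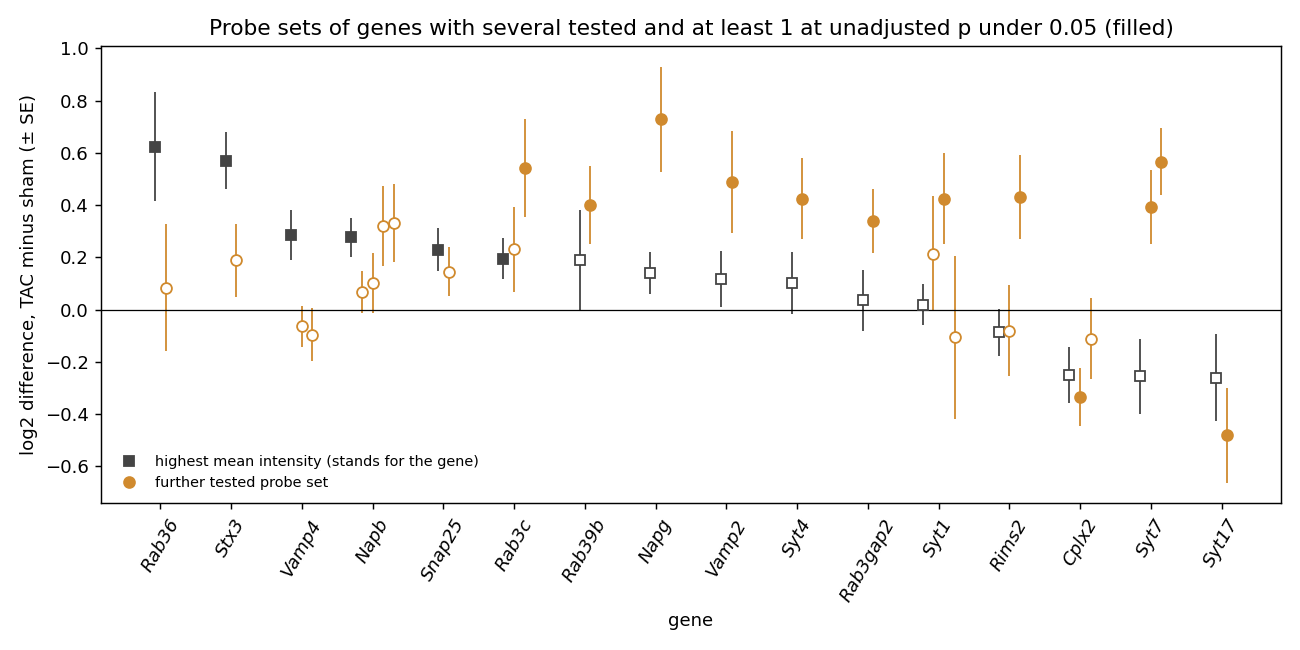
Log2 difference, TAC minus sham, with limma SE for each tested probe set of the 16 member genes that have several and at least 1 at an unadjusted p under 0.05 (filled). Squares mark the probe set that stands for the gene; for Syt7 the square lies at -0.25 and the circles at 0.39 and 0.57.

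The start regions of 4 of these genes are printed because Stx3, Napb and Vamp1 had the smallest p-values of the members and Syt9 was the 1 lower member. Each line gives the 150 bases before the RefSeq transcript start, on the gene's strand, 5′ to 3′, in GRCm38.p6. They are chr19:11819404-11819553 (minus strand, Stx3), chr2:148732421-148732570 (minus strand, Napb), chr6:125215431-125215580 (plus strand, Vamp1) and chr7:107370640-107370789 (plus strand, Syt9). Capitals mark a GC box (GGGCGG on either strand) or a TATA-like match (TATAAA on either strand).
Stx3: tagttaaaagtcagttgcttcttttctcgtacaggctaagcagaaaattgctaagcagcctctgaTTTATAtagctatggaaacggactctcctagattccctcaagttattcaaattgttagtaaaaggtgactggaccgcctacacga
Napb: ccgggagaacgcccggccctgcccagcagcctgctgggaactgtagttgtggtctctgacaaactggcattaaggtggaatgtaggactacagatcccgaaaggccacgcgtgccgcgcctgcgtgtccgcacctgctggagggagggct
Vamp1: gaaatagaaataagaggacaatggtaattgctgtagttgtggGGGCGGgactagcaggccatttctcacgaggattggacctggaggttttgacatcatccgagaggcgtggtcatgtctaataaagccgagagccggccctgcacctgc
Syt9: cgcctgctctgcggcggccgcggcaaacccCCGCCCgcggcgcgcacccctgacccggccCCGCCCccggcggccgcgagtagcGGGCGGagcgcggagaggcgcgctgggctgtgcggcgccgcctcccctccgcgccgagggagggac
The Syt9 stretch holds 3 GC boxes, that of Vamp1 holds 1, that of Stx3 holds 1 TATA-like match on the opposite strand, and the Napb stretch holds neither motif. The share of G and C is 84.7% for Syt9, 63.3% for Napb, 52.0% for Vamp1 and 40.0% for Stx3. RefSeq start windows, from 250 bases before to 50 after the start, were at hand for 63 of the 80 genes (77 windows). A GC box was found in 53 of the 77, or 68.8%, beside 35.7% of all 32851 windows of that length, and TATAAA in 4, or 5.19%, beside 13.6%. The cAMP response element TGACGTCA was found in 3 (Napa, Syn1 and Stxbp3), or 3.90%, beside 1.79%. The 32851 windows were not limited to genes tested on these arrays, while the members were, and some genes have several windows. Whether the members differ in these shares from other tested genes was not tested. These are matches of letters in annotated windows, and no binding was measured.

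Other genes of the vesicle cycle were taken from a list by role. Of 63 listed, 55 were measured, and 6 (10.9%) were higher and 0 lower at an unadjusted p under 0.05. Of all genes tested, 5.43% were higher and 3.32% lower. The median log2 difference of the 55 was 0.018, and 0 were called after adjustment. In the group of vesicle filling and membrane, 2 of 15 (13.3%) were higher. These were the vesicular monoamine transporters Slc18a1 at 0.50 (SE 0.10) and Slc18a2 at 0.29 (SE 0.11), which load noradrenaline into vesicles. Slc18a2 measured 12.82, 13.12 and 12.93 on the TAC arrays, against 12.78, 12.59 and 12.62 on the sham arrays, so the groups did not overlap.

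Of the 12 active zone and calcium channel genes measured, 0 were higher or lower at that threshold. A lower mean was found for 9, beside 4481 of all 9955 genes tested. The median deviation of the 12 was -0.23 on TAC B, and 0.07 and 0.06 on TAC A and C. On the sham arrays it was -0.03 to 0.08. The part of TAC B in the lower means was not tested. Bsn (bassoon, an active zone scaffold) differed by -0.22 (SE 0.10). It measured 8.74 and 8.77 on TAC B and C, and 9.008 on TAC A, just under sham A (9.014). The N-type channel gene Cacna1b differed by -0.27 (SE 0.17) with overlapping groups. It measured 9.53 on TAC B, and 10.04 and 10.02 on TAC A and C. Of 19 endocytosis genes 2 (10.5%) were higher, the clathrin adaptor subunit Ap2a2 at 0.29 (SE 0.10) and the endophilin Sh3gl2 at 0.27 (SE 0.10). Of 9 exocyst subunits, which tether vesicles to the plasma membrane, 2 (22.2%) were higher, Exoc2 at 0.28 (SE 0.09) and Exoc7 at 0.35 (SE 0.14). Beside the 5.43% of all genes tested, shares of so few genes are coarse.

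The 19 members below the floor were Syt6, Syt8, Syt10, Syt12, Syt13, Doc2a and Doc2g, the synaptotagmin-like Sytl1, Sytl2 and Sytl4, the syntaxins Stx11 and Stx19, Stxbp2, Unc13c, Unc13d, Cplx3, Cplx4, Sv2b and Sv2c. None reached the floor on any of the 6 arrays, and no detection call is given with these values, so they count as not measured rather than absent. All 19 had a slightly lower TAC mean, as had 87.0% of all 27487 probe sets below the floor. The members nearest the floor from above were Rab3il1 at a mean of 4.21, Cadps2 at 4.22 and Rab32 at 4.52, and those nearest from below were Sv2c at 3.30, Sytl4 at 3.28 and Doc2a at 2.99.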

How the data were processed

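RNA from both stellate ganglia of 1 animal per array was hybridised to 6 arrays. The deposited values are linear probe set intensities, for which the authors used GCRMA according to the submitters' processing notes. A version was not given in the sources used here. All 64 control probe sets were left out, and the rest were log2-transformed here with no pseudocount or further normalization. Probe sets with a mean log2 under 4 were not tested, since GCRMA compresses values near background. Gene names came from GEO's annotation of the platform, and all 80 tested members matched RefSeq by gene identifier. The test was limma 3.58.1 in R 4.3.3, with lmFit and eBayes, TAC over sham, two-sided, with Benjamini-Hochberg adjustment over 17550 probe sets; SEs are limma's moderated ones. Each array was taken as 1 animal, and precision is limited by their number. An exact permutation test of 3 against 3 cannot give a p below 0.1.

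The members, role groups and lists were chosen with earlier results of these data known. Genes described most fully were a set of core release genes, the 15 members of smallest p, the 5 of highest intensity, those next to the floor, and genes with a further probe set of the other sign at an unadjusted p under 0.05; other members are named with their difference, and up to 4 genes of smallest p from each other list. A few core genes were not analysed here. The fit was tested on simulated data. Alternatives covered the floor, normalization, probe sets per gene, variance model, array weights, the title letter as a block, a plain test without moderation and each array left out. Leaving out sham C together with TAC B was chosen after the data had been seen.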

Additional observations from a re-analysis of the deposited data

How the results depend on the processing

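No setting called a member after adjustment. The counts of members higher and lower at an unadjusted p under 0.05, 10 and 1 as reported, were 14 and 6 of 99 members with no floor (where 2.76% of all probe sets were higher and 14.2% lower), 6 and 3 after quantile normalization, 5 and 4 after median centring, 9 and 2 with the mean of a gene's probe sets, 11 and 3 with trend and robust variance, 12 and 3 with array weights, 9 and 2 by the plain t-test without moderation, and 4 and 0 without sham C and TAC B. Leaving out 1 array gave 5 to 8 higher and 0 to 3 lower. The counts were 6 and 0 without TAC B (4.71% and 2.38% of all probe sets) and 5 and 3 without TAC C (4.44% and 2.09%). They were 5 and 2 without sham B (4.66% and 2.89%) and 6 and 1 without sham C (3.58% and 2.56%). With a floor of 6 the counts were 9 and 1 of 68 (6.74% and 3.52% of all probe sets), since Rab36 drops out. Over all features tested, the share ran in the other settings from 3.21% to 8.76% higher and from 2.09% to 4.84% lower. With array weights it was 8.76% and 4.52%, and with trend and robust variance 6.28% and 3.26%. With the mean of probe sets it was 6.31% and 3.03%, and by the plain t-test 4.40% and 3.62%. The 10 higher members kept their direction in every setting that tested them, as did Syt9. The median difference over the members was -0.019 with no floor, -0.025 after quantile normalization, -0.029 after median centring and 0.039 with the mean of probe sets.

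The letters A, B and C in the titles do not show that arrays are paired: the deviations of same-letter arrays correlated at 0.084, -0.0031 and -0.166. A replicate block on the letter gave 6 higher and 0 lower, beside 5.47% and 2.66% of all probe sets.

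Of 40 members followed singly, 28 kept their sign in all settings. Signs turned for quantile normalization in Rims1 (-0.030) and Snap23 (-0.060), and for median centring in Syt1 (-0.026), Cplx1 (-0.014), Snap23 (-0.041) and Vamp3 (-0.024). With the mean of probe sets they turned in Syt7 (0.23), Syt11 (0.0077), Rab3a (0.051), Rims1 (-0.025) and Rims2 (0.088), with array weights in Snap91 (0.017), and without sham C and TAC B in Syt11 (0.027), Rab3a (0.065), Snap91 (0.0070) and Cadps2 (-0.22). Leaving out 1 array, Syt1 ran from -0.017 to 0.055, Cplx1 from -0.024 to 0.090, Rab3a from -0.048 to 0.057, Rims1 from -0.14 to 0.24, Snap91 from -0.12 to 0.025, Snap23 from -0.022 to 0.025, Vamp3 from -0.020 to 0.058, Snap47 from -0.16 to 0.0051 and Cadps2 from -0.13 to 0.36. The cause was not tested. The 3 arrays a group limit what can be called, and members near the floor are the least certain.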
